A study of Saccharomyces cerevisiae with 24 samples.

Results

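Glycogen is the branched glucose polymer that budding yeast stores when growth slows or stress sets in. The glycogenins Glg1 and Glg2 prime a chain on themselves, the synthases Gsy1 and Gsy2 extend it from UDP-glucose, and the branching enzyme Glc3 adds the branches. The phosphorylase Gph1 and the debranching enzyme Gdb1 release the glucose again, while Pgm2 and Ugp1 supply UDP-glucose and Gac1 guides the phosphatase Glc7 to the synthase, which it activates. The 10 genes for these proteins, *GLG1*, *GLG2*, *GSY1*, *GSY2*, *GLC3*, *GPH1*, *GDB1*, *PGM2*, *UGP1* and *GAC1*, were chosen by symbol from the array annotation, and all 10 were among the 4071 genes tested.

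Transcript levels were measured on 24 two-colour arrays, with every sample hybridized against the same reference, pooled from all of the RNA. Every strain was of the S288c background (*Mat a*, *ho*, *ura3-52*), lacked its own *FZF1* through a KANMX deletion and carried an *FZF1* allele at the *ura3* locus. *FZF1* encodes a zinc finger transcription factor that activates the sulfite pump gene *SSU1*, and each allele was driven by the 5′ noncoding region built into it. The 4 alleles were that of *S. cerevisiae* (*S. cer*), that of *S. paradoxus* (*S. par*), the *S. cerevisiae* 5′ noncoding region joined to the *S. paradoxus* coding region (C.P.), and the reverse (P.C.). Cultures grew in rich dextrose medium acidified with tartaric acid, and cells were collected just before (0 min) sodium sulfite was added to 1 mM and again at 15 min, with 3 independent replicates in each of the 8 groups of allele and time. No sample taken at 15 min without sulfite was analysed here, so sulfite and the passing of time cannot be told apart. In each group 2 samples were labelled with Cy3 and 1 with Cy5. A level below is the log2 ratio of sample over pool averaged over a gene's 2 array features, and a response is the level at 15 min minus that at 0 min.

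Within groups, arrays correlated across genes with a median Pearson r of 0.79 (24 pairs), and pairs of opposite dye had a median r of 0.77 (16 pairs). The 2 features of a member correlated over the 24 arrays with r between 0.92 for *GLG2* and 0.999 for *GPH1*. As a check of the labels, *FZF1* itself read between −0.11 and 2.21 on the arrays with the *S. cerevisiae* coding region, with 1 exception, and between −5.57 and −2.47 on those with the *S. paradoxus* coding region. How well its features detect the *S. paradoxus* sequence was not tested, so this gap serves only to tell the alleles apart and does not measure transcript amount. The exception was the array labelled *S. cer* 0 min replicate 2, where *FZF1* was at −3.63, against its label. The responses and the comparisons of alleles are given below with this array, and the medians and tested contrasts of the members are followed by values without it. Not given without it are each gene's mean response, the related lists, the likeness to other genes, the counts of 4-fold rises, the order of the alleles and the differences within each dye.

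All 10 glycogen genes rose after sulfite, from 1.97-fold for *GLG2* to 10.7-fold for *PGM2* (means of the 4 alleles). Of all genes tested, 39.5% rose and 39.6% fell at this threshold (limma, adjusted p under 0.05). The increase was at least 2-fold for 9 members, all but *GLG2*, and at least 4-fold for 7, where 9.87% and 2.85% of all genes rose as far. The median response of the members was 2.38 on the log2 scale and that of all genes was 0.01. Each array was centred on its median over genes, which holds a median over all genes near 0 in every comparison below. Without the array labelled *S. cer* 0 min replicate 2, the median of the members was 2.40 and all 10 again rose, as did 1606 of the 4071 genes. For each member the lowest of the 12 arrays at 15 min lay above the highest of the 12 at 0 min, which held for 19.2% of all genes. The narrowest gap between the times was 0.51 for *GLG2* and the widest was 2.58 for *PGM2*.

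**Figure D1:**
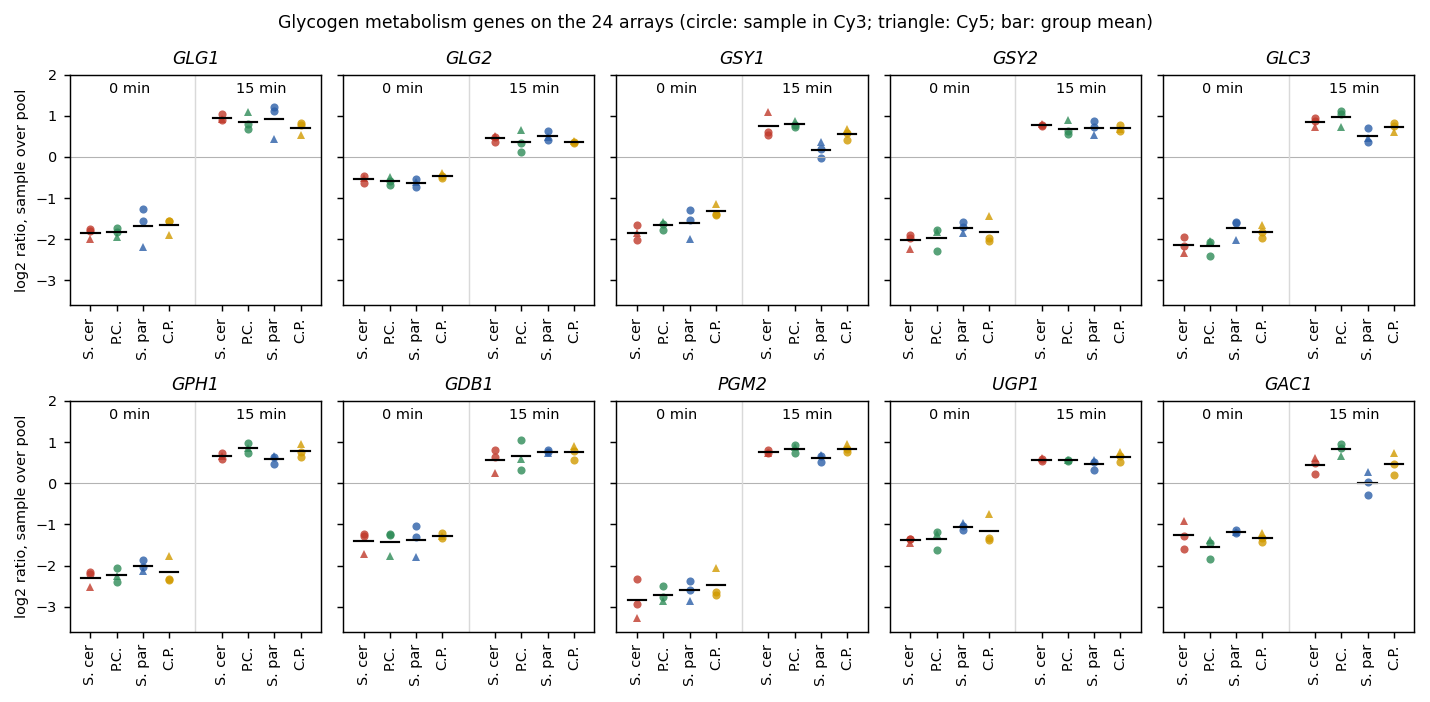
Log2 ratio of sample over pool (vertical axis) for each of the 10 glycogen genes on the 24 arrays, by *FZF1* allele and time. Circles are samples labelled with Cy3, triangles are samples labelled with Cy5 and bars are means of 3 arrays. In every panel the 15 min arrays lie above the 0 min arrays, and the step is widest for *PGM2* and narrowest for *GLG2*.

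The genes that prime the polymer did not respond alike. *GLG1* (YKR058W, chromosome XI, 552770 to 554620, R64) rose 6.11-fold, with a response of 2.61 ± 0.10 (SE, adjusted p = 1.68e-15). Its levels ran from −2.18 to −1.26 at 0 min (median −1.78) and from 0.43 to 1.21 at 15 min (median 0.87). *GLG2* (YJL137C, chromosome X, 154985 to 156127) started closest to the pool of all members. Its levels ran from −0.74 to −0.39 at 0 min (median −0.53) and from 0.12 to 0.65 at 15 min (median 0.40). That gave *GLG2* a response of 0.98 ± 0.06 (SE, adjusted p = 8.88e-13), the smallest of the 10.

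The elongating and branching enzymes rose between 4.51-fold and 6.63-fold. *GSY2* (YLR258W, chromosome XII, 660716 to 662833), known as the main glycogen synthase, had a response of 2.59 ± 0.08 (SE, adjusted p = 4.87e-17). The 12 arrays at 15 min lay close together for this gene, from 0.53 to 0.89. *GSY1* (YFR015C, chromosome VI, 174265 to 176391), the other synthase, had a response of 2.17 ± 0.08 (SE, adjusted p = 1.43e-15), and its arrays at 15 min were spread from −0.03 to 1.10. *GLC3* (YEL011W, chromosome V, 133120 to 135234), the branching enzyme, had a response of 2.73 ± 0.07 (SE, adjusted p = 1.20e-17).

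The genes of glycogen breakdown rose along with those of synthesis. *GPH1* (YPR160W, chromosome XVI, 861306 to 864014), the phosphorylase, rose 7.45-fold, with a response of 2.90 ± 0.07 (SE, adjusted p = 3.50e-18). Its levels ran from −2.53 to −1.77 at 0 min and from 0.47 to 0.97 at 15 min. *GDB1* (YPR184W, chromosome XVI, 902044 to 906654), the debranching enzyme, rose 4.16-fold from levels between −1.80 and −1.04, with a response of 2.06 ± 0.10 (SE, adjusted p = 1.23e-13).

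Supply of UDP-glucose held the largest response of the 10. *PGM2* (YMR105C, chromosome XIII, 475897 to 477606), the major phosphoglucomutase, ranked 22 of the 4071 genes, with a response of 3.42 ± 0.10 (SE, adjusted p = 1.85e-17). Its 0 min levels were also the most spread, from −3.26 to −2.06, while its 15 min levels stayed between 0.52 and 0.95. *UGP1* (YKL035W, chromosome XI, 369891 to 371390), which makes UDP-glucose, rose 3.47-fold, with a response of 1.79 ± 0.07 (SE, adjusted p = 1.40e-15). *GAC1* (YOR178C, chromosome XV, 667860 to 670241), the phosphatase targeting subunit, rose 3.39-fold, with a response of 1.76 ± 0.09 (SE, adjusted p = 1.19e-13). Its 15 min levels reached from −0.28 to 0.96, the lowest of them below the pool.

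Members were next compared in pairs within each array, which cancels whatever an array shares. The 4 pairs were the paralogs of each step and the 2 enzymes of breakdown, and each was tested by a two-sided permutation test of the 12 arrays at 15 min against the 12 at 0 min (100000 resamples, p-values adjusted over the 4 pairs). *GLG1* rose more than *GLG2* by 1.63 ± 0.11 on the log2 scale (SE, permutation p = 2e-05, the smallest these resamples can give, adjusted p = 2.67e-05). *GPH1* rose more than *GDB1* by 0.84 ± 0.10 (SE, permutation adjusted p = 2.67e-05). The synthases were closer, with *GSY2* ahead of *GSY1* by 0.42 ± 0.12 (SE, permutation adjusted p = 0.00128). Without replicate 2 that last difference was 0.28 (permutation adjusted p = 0.071) and no longer passed the test.

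The phosphoglucomutases moved in opposite directions. *PGM1*, which encodes the minor isoform and is not among the 10, fell by 0.61 ± 0.10 (SE, limma adjusted p = 1.12e-05), so that *PGM2* minus *PGM1* changed by 4.03 ± 0.14 (SE, permutation adjusted p = 2.67e-05). *PGM2* minus *PGM1* lay between −3.69 and −2.31 at 0 min and between 0.85 and 1.67 at 15 min, with no overlap. Both genes are paralogs, as are the synthases and the glycogenins, and cross-hybridization between paralogs was not tested.

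**Figure D2:**
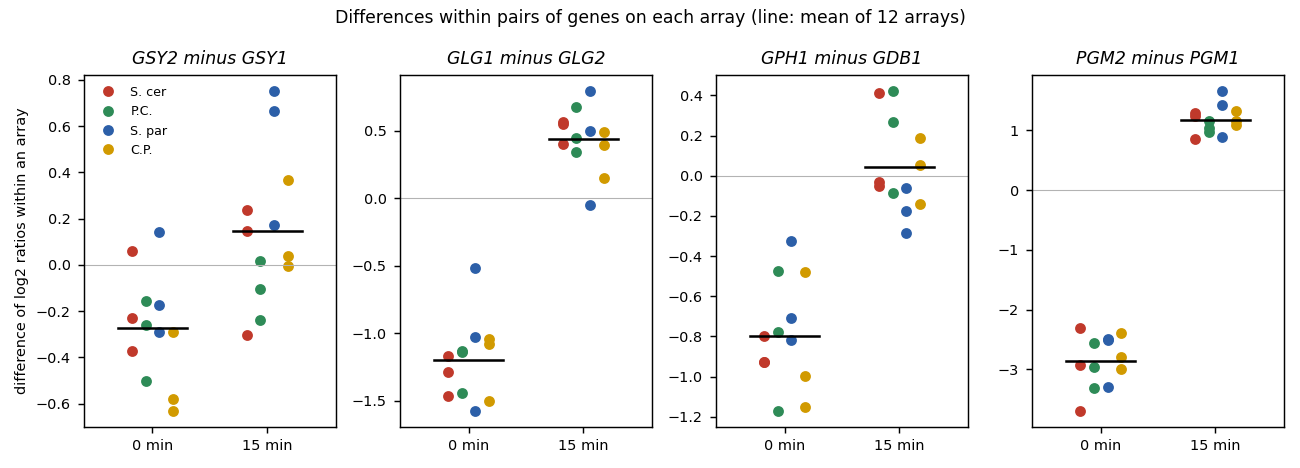
Difference of log2 ratios between the genes of a pair on each array (vertical axis, scale set for each panel) at 0 and 15 min, coloured by *FZF1* allele, with a line at the mean of 12 arrays. The times do not overlap for *GLG1* minus *GLG2*, for *PGM2* minus *PGM1* and, by a narrow gap, for *GPH1* minus *GDB1*. They overlap for *GSY2* minus *GSY1*.

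The genes around the pathway were counted in 3 lists. Of 17 measured genes for regulators and other glycogen enzymes, 14 rose and 0 fell, with a median response of 0.74. *GIP2*, which encodes another Glc7-binding protein, rose 6.97-fold, the sporulation glucoamylase gene *SGA1* had a response of 1.97 and *PIG2*, a further phosphatase subunit, 1.89. The cyclins Pcl8 and Pcl10 direct the kinase Pho85 to the synthase, which it inactivates, and their genes had responses of 1.26 and 0.74. *GLC7* itself had a response of 0.39 ± 0.06 (SE, adjusted p = 1.14e-05), against 1.76 for *GAC1*. Among subunits of the Snf1 kinase, *SIP2* had a response of 0.97 and *SNF1* one of 0.45, while *SNF4* at 0.08 and *SIP1* at −0.01 did not pass the test. The third gene that did not pass was *PIG1* at 0.04.

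In the list of glucose phosphate, UDP-glucose and trehalose steps, 12 of 17 measured genes rose and 3 fell, with a median response of 1.63. All 4 genes of the trehalose synthase complex rose, with responses of 2.80 for *TPS2*, 2.67 for *TSL1*, 2.12 for *TPS1* and 1.498 for *TPS3*. The trehalases rose too, at 1.76 for *NTH1*, 1.39 for *NTH2* and 1.63 for *ATH1*. Among the sugar kinases, *GLK1* at 2.60, *EMI2* at 2.39 and *HXK1* at 1.79 rose, and *HXK2*, the main hexokinase of growth on glucose, fell by 0.38. The other genes that fell were *PGM1* and *FKS1*, a cell wall glucan synthase that uses UDP-glucose, which fell by 0.82.

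Of 16 measured genes for cAMP signalling and stress regulators, 11 rose and 2 fell, with a median response of 0.59. The kinase gene *YAK1* rose 4.99-fold and the phosphodiesterase gene *PDE1* had a response of 1.92. Subunits of protein kinase A split, with *TPK2* at 1.54 and the regulatory subunit gene *BCY1* at 0.96, and *TPK3* lower by a change of −1.30. *RAS1* had the lowest value of the list at −2.24. Of the stress activators, *MSN2* had a response of 0.65, while *MSN4* at 0.04 did not pass the test.

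**Figure D3:**
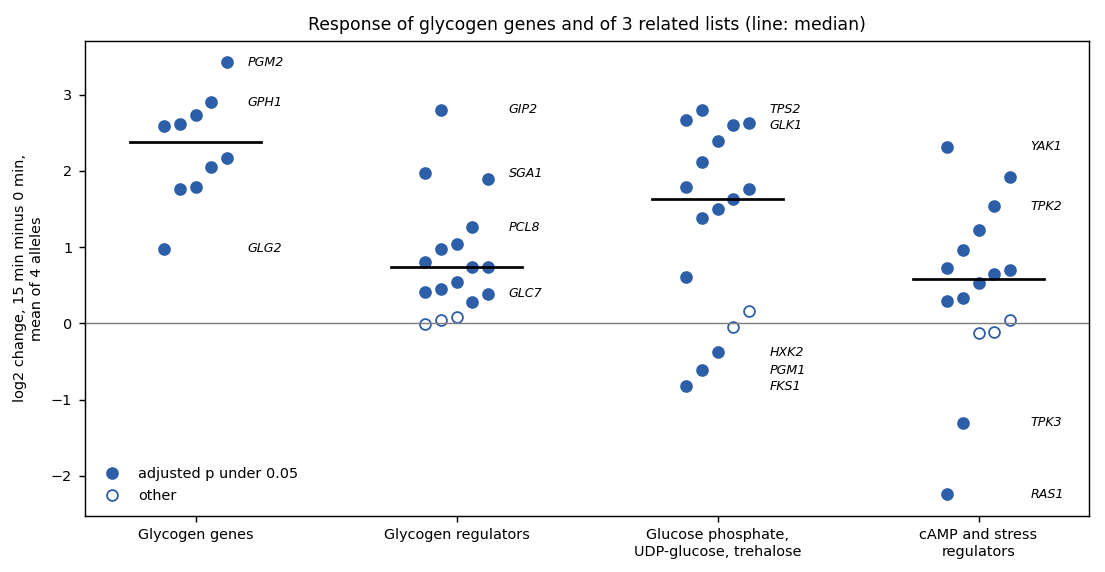
Response to sulfite (log2 change from 0 to 15 min, mean of 4 alleles, vertical axis) for the 10 glycogen genes and 3 related lists, with a line at each list's median. Filled points passed an adjusted p of 0.05 and open points did not. The glycogen genes all lie above 0, with a median of 2.38 against 0.74, 1.63 and 0.59 for the other lists.

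Likeness to the members was measured by Pearson's r with their mean. Over the 8 group means, the closest other genes were *GID8*, *KIN1*, *GAD1*, *TPK2* and *ADH5*, each with an r of 0.999, and time sets nearly all of that likeness. After group means were taken away, which leaves differences between replicates on 24 arrays, the closest were *HXK1* (r of 0.74), *TPS1*, *UIP4*, *MSC1* and *GLK1* (each between 0.69 and 0.70). In the same replicate differences the members followed each other to unlike degrees. *GPH1* followed the mean of the other 9 with an r of 0.80, *PGM2* with 0.73 and *GSY2* with 0.67, whereas *GLG1* had an r of 0.06 and *GAC1* one of −0.08. Arrays of one group also share a dye or differ in it. Cy5 samples read lower than Cy3 samples of their group by a mean of −0.28 for *GLG1* and −0.25 for *GDB1* and higher by 0.22 for *GAC1*, and the part of dye in these correlations was not tested.

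The question that the alleles address is whether the origin of the *FZF1* coding or 5′ noncoding region changes expression. All 10 members rose with every allele. With the *S. cer* allele 29% of all genes rose, with *S. par* 30.3%, with C.P. 29.3% and with P.C. 28.7%. The median response of the members was 2.69 with *S. cer*, 2.56 with P.C., 2.19 with *S. par* and 2.20 with C.P. The alleles with the *S. cerevisiae* coding region thus had the higher medians. The median over all genes was between 0.00 and 0.01 for each allele, but the centring of the arrays holds it near 0. Of all genes, 140 rose at least 4-fold with *S. cer* and 125 with P.C., against 110 with *S. par* and 115 with C.P. (limma, adjusted p under 0.05). Without the array labelled *S. cer* 0 min replicate 2, all 10 members still rose with every allele, and the *S. cer* median was 2.76. In that fit 1119 of the 4071 genes rose with *S. cer*, 1224 with *S. par*, 1197 with C.P. and 1156 with P.C. The *S. cer* response of *PGM2* was then 3.86 in place of 3.605 and that of *GAC1* 1.54 in place of 1.71.

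**Figure D4:**
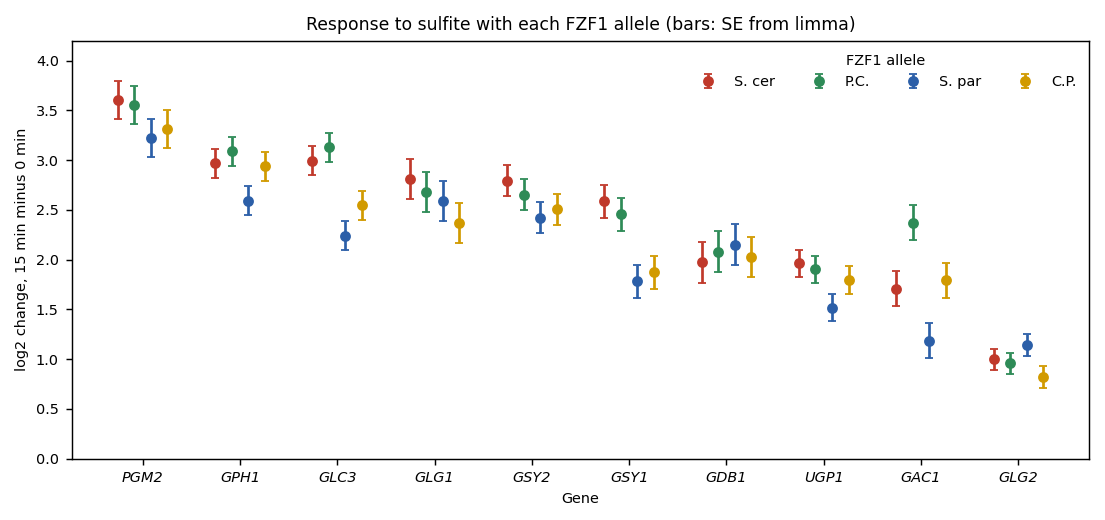
Response to sulfite (log2 change from 0 to 15 min, vertical axis) of each glycogen gene with each *FZF1* allele, with SE bars from limma. For 7 of the 10 genes, all but *GAC1*, *GDB1* and *GLG2*, both alleles with the *S. cerevisiae* coding region (*S. cer* and P.C.) lie above both with the *S. paradoxus* coding region (*S. par* and C.P.). The share of all genes with this order was not counted.

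For 7 of the 10 members, both alleles with the *S. cerevisiae* coding region had a larger response than both with the *S. paradoxus* coding region, and for *GPH1* the nearest of these values were 2.97 and 2.94. The share of all genes with this order was not counted and the members share arrays, so the count is a description only. *GLC3* and *GSY1* had the largest differences by coding region. *GLC3* responded by 3.00 with *S. cer* and 3.13 with P.C., against 2.24 with *S. par* and 2.55 with C.P. (SE 0.15 each). *GSY1* responded by 2.59 with *S. cer* and 2.46 with P.C., against 1.78 with *S. par* and 1.87 with C.P. (SE 0.17 each). The remaining synthase gene, *GSY2*, ranged only from 2.42 with *S. par* to 2.79 with *S. cer* (SE 0.16 each). *GSY2* therefore exceeded *GSY1* by 0.64 with *S. par* and 0.63 with C.P. but by 0.21 with *S. cer* and 0.20 with P.C., a contrast between alleles that was not tested by itself.

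Array by array, *GLC3* read −2.17, −1.94 and −2.33 with *S. cer* and −2.07, −2.40 and −2.03 with P.C. at 0 min. It read −1.61, −1.58 and −2.01 with *S. par* and −1.97, −1.82 and −1.65 with C.P. at the same time. So *GLC3* was mostly lower at 0 min with the *S. cerevisiae* coding region, and the ranges overlapped only through *S. cer* replicate 2 (−1.94). That is the array whose *FZF1* level went against its label. Without it, the highest level with the *S. cerevisiae* coding region was −2.03 and the lowest with the *S. paradoxus* coding region was −2.01. At 15 min *GLC3* read 0.86, 0.94 and 0.74 with *S. cer* and 1.11, 0.73 and 1.05 with P.C. It then read 0.35, 0.71 and 0.46 with *S. par* and 0.75, 0.83 and 0.61 with C.P., so that the order had turned and the ranges again overlapped.

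*GSY1* read −2.02, −1.66 and −1.85 with *S. cer* and −1.63, −1.78 and −1.57 with P.C. at 0 min. It read −1.54, −1.29 and −1.999 with *S. par* and −1.40, −1.38 and −1.15 with C.P. The C.P. arrays were all higher than those of both alleles with the *S. cerevisiae* coding region, and the *S. par* arrays were split. At 15 min *GSY1* read 0.54, 0.60 and 1.10 with *S. cer* and 0.78, 0.88 and 0.73 with P.C. It read −0.03, 0.20 and 0.36 with *S. par* and 0.59, 0.41 and 0.68 with C.P., and the *S. par* arrays lay below all others.

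In the test over all genes, the response with the *S. paradoxus* coding region was lower by 0.67 ± 0.15 for *GLC3* (−0.67, 95% interval −0.98 to −0.36) and by 0.69 ± 0.17 for *GSY1* (−0.69, interval −1.04 to −0.35). Their unadjusted limma p-values of 0.000203 and 0.000466 ranked 1 and 4 among the 4071 genes, and neither passed after adjustment (adjusted p = 0.408 for each). *GAC1* had a difference of −0.55 ± 0.18 (interval −0.92 to −0.18, adjusted p = 0.711 in limma) and an unadjusted p-value of 0.00521. No member was called, nor was any gene (0%). At an unadjusted p under 0.05, 3 of the 10 members were lower, where 3.68% of all genes were. The intervals of the other 7 members reached 0, and the lowest bound among these was −0.71 for *PGM2*.

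With all arrays in the fit, the remaining 7 members passed neither threshold. The difference was between −0.31 and −0.26 for *PGM2*, *UGP1*, *GLG1*, *GPH1* and *GSY2*, at 0.00 for *GLG2* (interval −0.23 to 0.23) and at 0.06 for *GDB1* (interval −0.37 to 0.49). In all, 8 of 10 were below 0, as were 51.4% of all genes, and the median was −0.27 against −0.01 over all genes. Values below 0 were not particular to the members. Of the glucose phosphate, UDP-glucose and trehalose genes, 15 of 17 were below 0 (median −0.29), and 6 had an unadjusted limma p under 0.05. Among them *GLK1*, at −0.71, ranked 3 of all genes by p-value. Below 0 were also 13 of 16 cAMP and stress genes (median −0.14) and 11 of 17 regulators (median −0.04). Members share arrays, so their signs are not independent of each other.

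Within the dyes the *GLC3* difference was −0.73 on the 16 Cy3 arrays and −0.55 on the 8 Cy5 arrays. For *GSY1* it was −0.74 and −0.60. For these genes it thus had the same sign and a similar size with either dye. The *GAC1* difference was −0.79 with Cy3 but −0.07 with Cy5, and that of *GSY2* was −0.08 with Cy3 and −0.62 with Cy5.

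**Figure D5:**
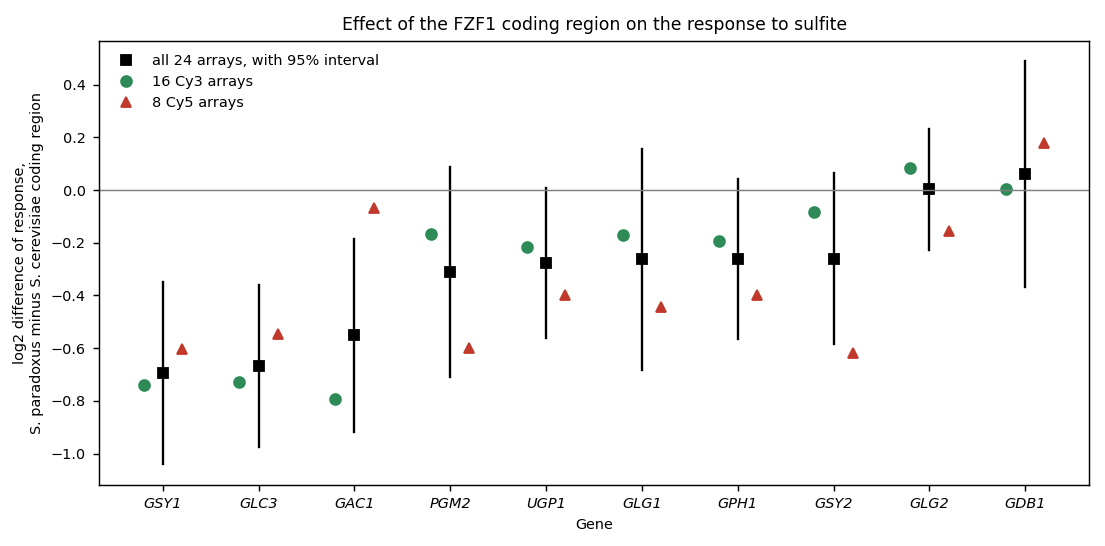
Difference in response between the *S. paradoxus* and the *S. cerevisiae* *FZF1* coding region (log2, vertical axis) for each glycogen gene, over all 24 arrays with its 95% interval (squares), over the 16 Cy3 arrays (circles) and over the 8 Cy5 arrays (triangles). The intervals of *GSY1*, *GLC3* and *GAC1* lie below 0 and the other 7 include 0.

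Without the array labelled *S. cer* 0 min replicate 2, the difference was −0.72 for *GLC3* (limma adjusted p = 0.349), −0.74 for *GSY1* (adjusted p = 0.418) and −0.47 for *GAC1* (adjusted p = 0.934). That of *PGM2* moved from −0.31 to −0.44 (adjusted p = 0.934), with an unadjusted p-value of 0.0133 in place of 0.121. So 4 members stood under 0.05 before adjustment, and the share of all genes at that level was not counted in this fit. After adjustment no member passed, and 0 of all genes were called. Without replicate 3, a number that 7 of the 8 Cy5 arrays carry, the difference was −0.65 for *GLC3* (adjusted p = 0.0404), −0.78 for *GSY1* (adjusted p = 0.0264) and −0.72 for *GAC1* (adjusted p = 0.0352). These 3 members passed the test there, as did 150 genes with a lower and 97 with a higher response.

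At 0 min alone, levels with the *S. paradoxus* coding region were above those with the *S. cerevisiae* coding region for all 10 members, by 0.02 for *GLG2* to 0.38 ± 0.10 (SE) for *GLC3*, with a median of 0.21 against 0.01 over all genes. Of all genes, 46.2% were below 0. Values above 0 were not particular to the members. Below 0 were only 2 of 17 glucose phosphate, UDP-glucose and trehalose genes (median 0.16), 2 of 16 cAMP and stress genes (median 0.08) and 5 of 17 regulators (median 0.04). Members share arrays, so their signs are not independent here either. No member passed the test at 0 min (0.0246% of all genes did), and 4 had an unadjusted limma p under 0.05, where 1.4% of all genes were higher at that level. These were *GLC3*, *UGP1*, *GSY1* and *GSY2*, with unadjusted limma p-values of 0.00151, 0.0137, 0.0220 and 0.0474. Without the array labelled *S. cer* 0 min replicate 2 the *GLC3* difference was 0.43 (limma adjusted p = 0.493) and that of *PGM2* moved from 0.24 to 0.37 with an unadjusted p-value of 0.00536. That of *GAC1* moved from 0.16 to 0.07, and no member passed after adjustment.

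At 15 min, 8 of 10 members had a lower mean with the *S. paradoxus* coding region, as did 48.9% of all genes, with a median of −0.07 against 0.00. So did 12 of 17 glucose phosphate, UDP-glucose and trehalose genes, 10 of 16 cAMP and stress genes and 7 of 17 regulators. The differences were −0.40 ± 0.12 for *GSY1*, −0.40 ± 0.12 for *GAC1* and −0.29 ± 0.10 for *GLC3* (SE), with unadjusted limma p-values of 0.00268, 0.00466 and 0.0127. None passed after adjustment (0.0491% of all genes did), and 3.54% of all genes were lower at an unadjusted p under 0.05. At each time the 6 arrays with either coding region overlapped for all 10 members, and the share of all genes that overlapped was not counted. For *GLC3* at 0 min the overlap came only from the array labelled *S. cer* 0 min replicate 2.

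Averaged over both times, the coding region effect lay between −0.12 and 0.12 for every member, and no member was called (0.0491% of all genes were) or had an unadjusted limma p under 0.05 (1.92% of all genes). The 5′ noncoding region had no called effect on any member, either over both times or on the response. The lowest unadjusted limma p-values there were 0.190 and 0.222, and 0% of all genes were called. The interaction between the regions over both times was −0.23 for *GSY1* (adjusted p = 0.257 in limma). With all arrays it was the 1 member at an unadjusted p under 0.05, where 14.5% of all genes stood at that level and 0.0246% were called. Without the array labelled *S. cer* 0 min replicate 2, *PGM2* stood there too, with an interaction of −0.20 in place of −0.14 and an unadjusted p-value of 0.0201. The coding region effect over both times then lay between −0.16 for *GAC1* and 0.15 for *PGM2*, the lowest unadjusted p-values for the 5′ noncoding region were 0.265 and 0.227, and no member was called in any of these contrasts.

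In the F tests among the 4 alleles, no member was called over both times (0.0737% of all genes) or for a response that varied with allele (0%). At an unadjusted limma p under 0.05 stood *GSY1* over both times (5.9% of all genes) and *GLC3*, *GAC1* and *GSY1* for the response (5.35% of all genes), with unadjusted p-values of 0.0411 for the former and 0.00131, 0.00134 and 0.00447 for the latter. By the analysis of variance that the methods describe, which takes each feature as an observation at an unadjusted P under 0.01, allele by time was called for *GLC3*, *GAC1*, *GSY1* and *UGP1* and allele for *GSY1*. That test called 12.1% of all genes for each of these terms. Without the array labelled *S. cer* 0 min replicate 2, the limma F tests again called no member. Of all genes they called 7 over both times and 0 for the response. The lowest adjusted p-values of the members were 0.760 over both times (*GSY1*) and 0.526 for the response (*GAC1* and *GLC3*).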

How the data were processed

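The deposited values were log2 ratios of sample over pool for each feature of an Agilent yeast (V2) array, which the authors had median-normalized and turned to the same direction for both dyes. Features were named by array position through the platform annotation, since matching by equal number gave a gene's features a median r of −0.01 over arrays and matching by position gave 0.93. Of 15744 features 8152 were named, for 4073 genes, and 4071 genes with values on at least 2 arrays of each group were tested.

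Each gene's features were averaged, the median over genes was subtracted from every array, and limma 3.58.1 (R 4.3.3) was fitted on the 8 group means, with Benjamini-Hochberg adjustment over all genes tested and a threshold of 0.05. The coding region contrast was the mean of *S. par* and C.P. minus the mean of *S. cer* and P.C. The fit and the permutation test (SciPy 1.17.1) were tested on simulated data. Both treated the arrays as independent, although the paper describes sampling every culture at both times. The labels do not say which samples share a culture. Between the times, same-numbered arrays had the lowest r for P.C. replicates 3 (−0.47) and 2 (−0.24), which changed dye. The P.C. arrays with Cy5, replicate 3 at 0 min and replicate 2 at 15 min, had an r of 0.42. The members and the 3 lists were chosen with earlier results of these data known. The text names all members, *FZF1*, genes of the lists and the 5 genes most like the members by each measure. Loci are those of RefSeq (R64). Sequences were not used here. The number of arrays limits the precision of every value.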

Additional observations from a re-analysis of the deposited data

How the results depend on the processing

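The response to sulfite of the 10 members, as a mean and with each allele, kept its direction and passed the test under all 40 alternatives. The effects of the *FZF1* regions depended on the setting. For the coding region effect on the response, 0 members were called in the main analysis, 3 lower with Cy3 arrays alone (*GSY1*, *GLC3* and *GAC1*, among 130 genes lower and 23 higher), the same 3 with the robust fit (96 genes lower and 63 higher) and 2 with array weights (*GSY1* and *GLC3*, 17 lower and 5 higher). Leaving out a replicate number gave 0 to 3. Over all alternatives the difference lay between −0.78 and −0.49 for *GLC3* and between −0.79 and −0.59 for *GSY1*. At 15 min, 3 members were lower with Cy3 alone (*GSY1*, *GLC3* and *GAC1*) and 2 with array weights and with the robust fit (*GSY1* and *GAC1*), and 0 to 2 without a replicate number. All genes lower at 15 min numbered 1 in the main analysis, 397 with Cy3 alone, 116 with array weights and 123 with the robust fit. Without replicate 3, where *GSY1* and *GAC1* were called, 383 genes were lower and 341 higher. At 0 min array weights called 1 member higher, *GLC3*, among 5 genes higher and 1 lower. For the interaction of the regions, 1 member was higher with Cy3 alone (*GLG1*, of 178 genes), and 1 was lower with array weights (*GSY1*, of 318 genes) and with the robust fit (*GSY1*, of 307 genes). Among alleles over both times, 1 was called with Cy3 alone (*GLG1*, of 174 genes), 1 by the study's analysis of variance (*GSY1*, of 491 genes) and 0 with array weights (of 415 genes) or the robust fit (of 398 genes). For allele by time, 3 were called with array weights (*GSY1*, *GLC3* and *GAC1*, of 135 genes), 4 with the robust fit (those and *UGP1*, of 280 genes) and 4 by the study's analysis of variance (of 491 genes). The cause of these shifts was not tested.

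Values near 0 changed sign. The coding region effect on the response of *GLG2* was −0.022 with its first feature and −0.023 with array weights, and between −0.060 and 0.072 with an array or a replicate number left out. That of *GDB1* was −0.025 with its first feature and between −0.069 and 0.25 with an array or a replicate number left out. The effect at 0 min on *GAC1* was between −0.0071 and 0.26 with a replicate number left out. *GSY2* minus *GSY1* was between 0.28 and 0.56 with a replicate number left out, and no longer passed without replicate 2 (adjusted p = 0.071 by permutation).

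Deviations of an allele's same-numbered arrays at 0 and 15 min had r from −0.47 to 0.76 (over 0.1 in 8 of 12 pairs). Some pairs differ in dye, so this cannot decide pairing. With the replicate number as a fixed block, no member's call changed, and the coding region effect on the response kept an adjusted p of 0.247 for *GLC3*, *GSY1* and *GAC1*. A further fit set each replicate number within an allele as a random block, although the labels do not say it marks a culture. The limma adjusted p of the same effect was then 0.0593 for *GLC3* and 0.0775 for *GSY1*, and no member was called. The search of promoters for motifs was not run, because promoter sequences were not used here.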
